A study of Mus musculus with 2 samples.

Results

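The NK homeobox genes encode transcription factors that bind DNA through a homeodomain, and 9 of them were examined for open chromatin in mouse cardiac progenitor cells (CPCs). They were Nkx2-1, Nkx2-2, Nkx2-3, Nkx2-5, Nkx2-6, Nkx2-9, Nkx3-2, Nkx6-1 and Nkx6-2, and a peak was counted for a gene when the deposited list gave that gene's symbol. The list held 26232 distinct peaks, of which 14 carried the symbol of 1 of the 9 genes. Nkx2-5 had 3 peaks, as had Nkx3-2 and Nkx6-1. Nkx6-2 had 2 peaks, Nkx2-1, Nkx2-3 and Nkx2-9 had 1 each, and Nkx2-2 and Nkx2-6 had 0.

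ATAC-seq reads open chromatin through a transposase, Tn5, that cuts accessible DNA and leaves sequencing adapters at the cut. The only group was day 5 CPCs, obtained by directed differentiation of E14 Tg(Nkx2–5-EmGFP) embryonic stem cells, labelled as strain C57BL/6. Stem cells were grown with leukemia inhibitory factor and BMP4, then aggregated. They were aggregated again with Activin A, VEGF and BMP4, and plated with VEGF, bFGF and FGF10. The 2 samples were replicates from separate differentiations without knockdown, and no cell sorting was described for ATAC-seq. The deposited list is 1 for both samples and keeps regions called in both, with no score and no value for either replicate, so no replicate error, depth per sample or test could be had. Isl1 knockdown cells, which the series also names, were not analysed here. The cells carry an EmGFP reporter driven by Nkx2-5. How much Nkx2-5 sequence it holds is not given in the sources used here, and reads from such a copy cannot be told apart from reads of the gene itself. A gene with 0 peaks may still have open chromatin called in 1 replicate only or below the caller's threshold.

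NK genes are an old homeobox class whose members mark different organs. Nkx2-5 and Nkx2-6 act in the heart and pharynx, others pattern the gut, lung, thyroid, spleen and skeleton, and a further set divides the ventral neural tube and the pancreas into cell types. The factors of the NK2 group bind a short site with the core AAGTG. Open chromatin at a promoter or at a distal element is a place where factors can reach DNA, and it does not by itself give the level of a transcript.

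Among markers of the cells a differentiation could hold, 8 of 9 cardiac progenitor genes had a peak, all but Hand2, beside 62.5% of 21896 protein coding genes. A peak was also listed for 4 of 5 pluripotency markers (not Pou5f1), 4 of 5 endothelial and blood markers (not Gata1), 5 of 5 neural markers and 3 of 5 endoderm markers (not Afp and Hnf4a). A peak within 1 kb of a transcription start site (TSS) was held by 6, 3, 1, 3 and 1 of these genes in the same order, beside 50.0% of protein coding genes. Nkx2-5, itself 1 of the 9 NK genes, was among the cardiac progenitor markers and counted in both the 8 and the 6. These lists are short, and a peak at a marker does not tell which cells were present. The part of other cell types in the peaks of NK genes was not tested.

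Of the 9 NK genes, 7 had at least 1 peak, beside the 62.5% of all protein coding genes. At 3 or more peaks stood 3 of the 9, beside 10.3% of protein coding genes. The 9 genes had 1.56 peaks per gene on average and a median of 1, against a mean of 1.07 and a median of 1 over all protein coding genes. A further 4 NK genes of the mouse, Nkx1-1, Nkx1-2, Nkx2-4 and Nkx6-3, had 6 peaks, 1.5 per gene, and each of the 4 had at least 1. Among 12 LIM-homeodomain genes, the family of Isl1, 11 had a peak with 2.25 per gene, and the 9 Msx and Dlx genes all had one with 2.56 per gene. The highest count in an NK gene was 3, whereas it reached 8 in the LIM-homeodomain and 6 in the Msx and Dlx lists.

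**Figure D1:**
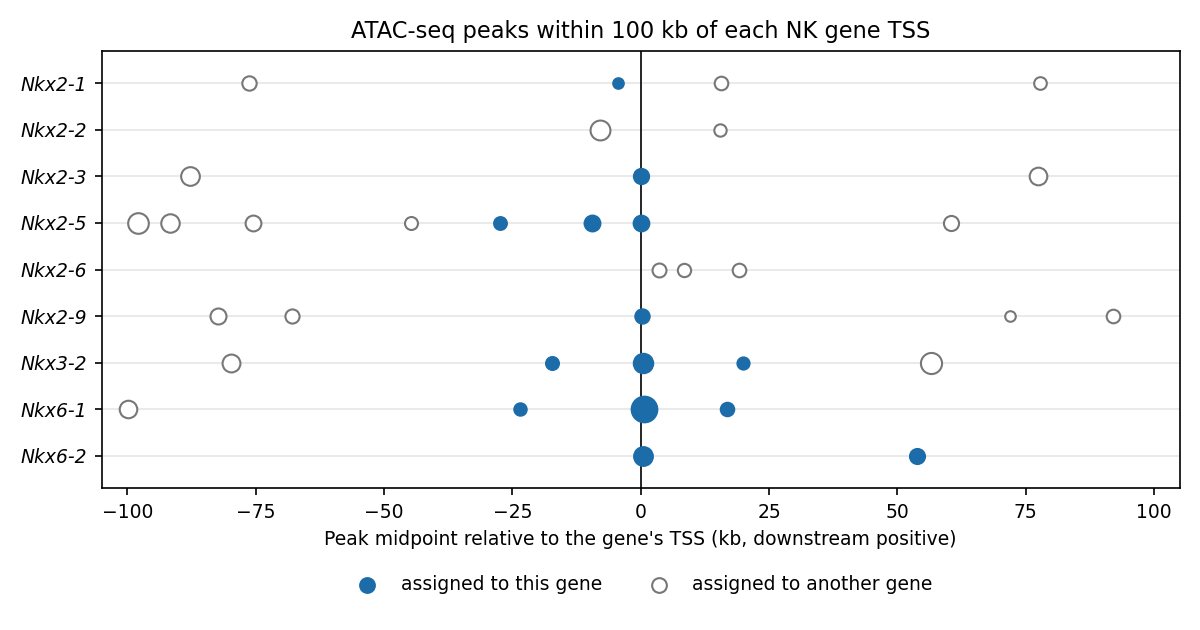
ATAC-seq peaks within 100 kb of the TSS of each of the 9 NK genes, with the peak midpoint in kb on the horizontal axis (positive downstream of the TSS) and 1 row per gene; filled circles are peaks assigned to that gene, open circles peaks assigned to another gene, and circle size follows peak width. Peaks lie at the TSS of 6 genes, and Nkx2-2 and Nkx2-6 have open circles only.

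Nkx2-5, a defining factor of cardiac progenitors, lies on the minus strand of chromosome 17 with its TSS at 26978510 (mm9). Its promoter peak, chr17:26977858-26978992, was 1135 bp wide and was centred 86 bp downstream of the TSS by the deposited distance. It reached 482 bp upstream and 652 bp into the gene, where it covered 331 bp of coding sequence. The second peak, chr17:26987324-26988478, was 1155 bp wide and intergenic, at -9390 bp, where a negative distance is upstream of the TSS. The third, chr17:27005526-27006281, was 756 bp wide, at -27393 bp, and lay in an intron of the gene models Gm17382 and Gm20468. All 3 peaks of Nkx2-5 were thus at or upstream of its TSS. Within 100 kb of the TSS the list held 8 peaks, and the other 5 were assigned to Kifc5b (2 peaks), Phf1, Cuta and Bnip1.

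The Nkx2-5 peak at -9390 bp was the widest and most CpG-rich of the 8 NK peaks more than 1 kb from a TSS. Its observed over expected CpG ratio, the number of CG pairs against that given by the C and G content, was 0.632, and 93.4% of all peaks beyond 1 kb had a lower ratio. The peak at -27393 bp had a ratio of 0.197, with 36.5% of the same class lower. The 300 bp in the middle of the nearer peak (chr17:26987751-26988050, plus strand) are shown because they hold 2 matches to AGATAA, the letters bound by GATA factors, and 1 to TAATG, a core bound by LIM-homeodomain factors such as Isl1. Capitals mark matches on either strand to these motifs or to the NK2 core, here AGATAA at bases 19 and 116 and TAATG at base 174.

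Nkx2-5 -9390: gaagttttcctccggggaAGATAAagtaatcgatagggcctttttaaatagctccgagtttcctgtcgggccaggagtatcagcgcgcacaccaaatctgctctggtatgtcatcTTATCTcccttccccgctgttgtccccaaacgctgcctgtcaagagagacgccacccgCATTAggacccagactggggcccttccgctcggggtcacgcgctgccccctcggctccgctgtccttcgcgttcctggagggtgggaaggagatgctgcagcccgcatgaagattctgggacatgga

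The window had no match to AAGTG. A match of letters is a description of the sequence and does not show that a factor was bound.

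Nkx2-6, a relative of Nkx2-5 active in pharyngeal tissue and the outflow region of the heart, had 0 assigned peaks. It lies on the plus strand of chromosome 14 with its TSS at 69789633, and no peak came within 500 bp of that TSS. The nearest peak, chr14:69792732-69793624, was 893 bp wide and its midpoint lay in a coding exon of Nkx2-6 itself, 3545 bp downstream of the TSS. It was assigned to 1700092C10Rik at a deposited distance of -3277 bp. A second peak of 813 bp, 8444 bp downstream of the Nkx2-6 TSS, was also assigned to 1700092C10Rik. The count of 0 for Nkx2-6 therefore belongs to the gene assignment as deposited, since 1 peak overlapped the gene body.

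Nkx2-3, needed in gut and spleen development, had a single peak, chr19:43686329-43687393, of 1065 bp. It was centred 45 bp downstream of the TSS at 43686815 (plus strand) and covered 349 bp of coding sequence. The other peaks within 100 kb were promoter peaks of Got1 and Entpd7. Nkx2-1, a master factor of thyroid, lung and ventral forebrain, was the 1 gene of the 9 whose assigned peaks were all away from its TSS. Its single peak, chr12:57642031-57642547, lay in intergenic DNA at -4393 bp and, with a width of 517 bp, was the narrowest of the 14. Only 1.79% of all peaks, and 3.13% of those beyond 1 kb, were narrower. The region had a GC content of 47.2%, the lowest of the NK peaks, with a CpG ratio of 0.530 that was above that of 88.3% of peaks beyond 1 kb. Peaks at 15575 and 77712.5 bp downstream of the Nkx2-1 TSS had no nearer protein coding TSS in GENCODE, but were assigned to E030019B13Rik.

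Nkx2-1 shares its stretch of chromosome 12 with Nkx2-9, a factor of the ventral neural tube, whose TSS at 57714271 lies 76376 bp upstream on the same strand. Nkx2-9 had the contrasting arrangement, with a single peak at its promoter. That peak, chr12:57713622-57714571, was 950 bp wide and centred 175 bp downstream of the TSS, and was the narrowest of the 6 NK promoter peaks. Of all peaks within 1 kb of a TSS, 14.1% were narrower. On the far side of Nkx2-9, Pax9 had 2 peaks within 100 kb, one of them at its promoter.

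Nkx2-2, which specifies ventral neural progenitors and pancreatic endocrine cells, had 0 assigned peaks and none within 500 bp of its coding TSS, at 147012138 on the minus strand of chromosome 2. A wide peak of 1821 bp, chr2:147019202-147021022, stood at -7974 bp from that TSS in an intron of the antisense gene Nkx2-2as, and was assigned to 6430503K07Rik. It covered the start sites of 2 noncoding transcripts that GENCODE places within the Nkx2-2 gene, 7841 and 7840 bp upstream of the coding TSS. Its GC content of 64.1% and CpG ratio of 0.670 were within the range of the NK promoter peaks. The second peak in the region, 702 bp wide and 15434.5 bp downstream of the coding TSS, was assigned to Nkx2-2os. ATAC-seq carries no strand, so the peak cannot be given to 1 of the overlapping transcripts.

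Nkx3-2, a regulator of cartilage and of the spleen and stomach mesenchyme, had 1 peak at the TSS and 1 on either side. The promoter peak, chr5:42154429-42156162, was 1734 bp wide and covered 466 bp of coding sequence, and 77.1% of all peaks within 1 kb of a TSS were narrower. The upstream peak, chr5:42172631-42173401, was 771 bp wide at a deposited distance of -17556 bp, and the downstream peak, chr5:42135500-42136178, was 679 bp wide at 19621 bp. Both outer peaks were intergenic and had CpG ratios of 0.277 and 0.248, near the median of 0.242 for all peaks beyond 1 kb, against 0.711 in the promoter peak. Their central 300 bp are shown because both held the NK2 core AAGTG, the upstream one 2 times. The windows are chr5:42172866-42173165 and chr5:42135689-42135988, plus strand, with the same 3 motifs in capitals.

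Nkx3-2 -17556: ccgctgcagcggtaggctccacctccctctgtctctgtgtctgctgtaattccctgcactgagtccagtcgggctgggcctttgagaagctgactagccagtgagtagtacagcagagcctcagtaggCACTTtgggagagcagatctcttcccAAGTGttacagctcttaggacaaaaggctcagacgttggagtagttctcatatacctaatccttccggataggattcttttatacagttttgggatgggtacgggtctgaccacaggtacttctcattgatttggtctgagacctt
Nkx3-2 19621: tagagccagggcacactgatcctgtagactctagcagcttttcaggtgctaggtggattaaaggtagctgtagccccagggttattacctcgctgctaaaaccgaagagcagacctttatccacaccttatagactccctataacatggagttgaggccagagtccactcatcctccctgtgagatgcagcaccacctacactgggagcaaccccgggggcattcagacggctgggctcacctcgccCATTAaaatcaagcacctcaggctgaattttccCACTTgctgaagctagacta

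In the upstream window AAGTG stood at bases 129 and 155. In the downstream window it stood at base 281 and TAATG at base 248, and neither window had AGATAA.

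Nkx6-1, which specifies pancreatic beta cells and motor neurons, was arranged in the same way, with a promoter peak and 1 peak on either side. Its promoter peak, chr5:102092003-102095033, was the widest of the 14 at 3031 bp, and 98.9% of all peaks in the list were narrower. It ran from 788 bp upstream to 2242 bp downstream of the GENCODE TSS at 102094245 and covered 673 bp of coding sequence. The outer peaks were 708 bp wide at -23990 bp (chr5:102117367-102118074) and 836 bp wide at 16209 bp (chr5:102077104-102077939), both intergenic. The 836 bp peak had no match to any of the 3 motifs in its central 300 bp, whereas the 708 bp peak held each of them. The central window of that peak, chr5:102117571-102117870 on the plus strand, is shown with the matches in capitals, AAGTG at base 89 and, overlapping each other, TAATG at base 292 and AGATAA at base 294.

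Nkx6-1 -23990: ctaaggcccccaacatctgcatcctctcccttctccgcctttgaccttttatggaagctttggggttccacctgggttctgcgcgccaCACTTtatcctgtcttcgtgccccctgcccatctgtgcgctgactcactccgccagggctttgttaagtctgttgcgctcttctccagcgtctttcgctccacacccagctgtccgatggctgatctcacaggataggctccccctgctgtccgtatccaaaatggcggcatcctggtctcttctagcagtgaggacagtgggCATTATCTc

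Nkx6-2, a factor of ventral neural progenitors and oligodendrocytes, had 2 peaks and no peak of another gene within 100 kb. The promoter peak, chr7:146767496-146769120, was 1625 bp wide and centred 389 bp downstream of the TSS in a coding exon. It had the highest CpG ratio of the 14 peaks, 0.973, above that of 97.7% of all peaks within 1 kb of a TSS. The other peak, chr7:146714311-146715354, was 1044 bp wide, 53864 bp downstream, the most distant of the 14, and lay in an intron of the neighbouring gene Inpp5a. Its CpG ratio of 0.194 was the lowest of the 14.

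**Figure D2:**
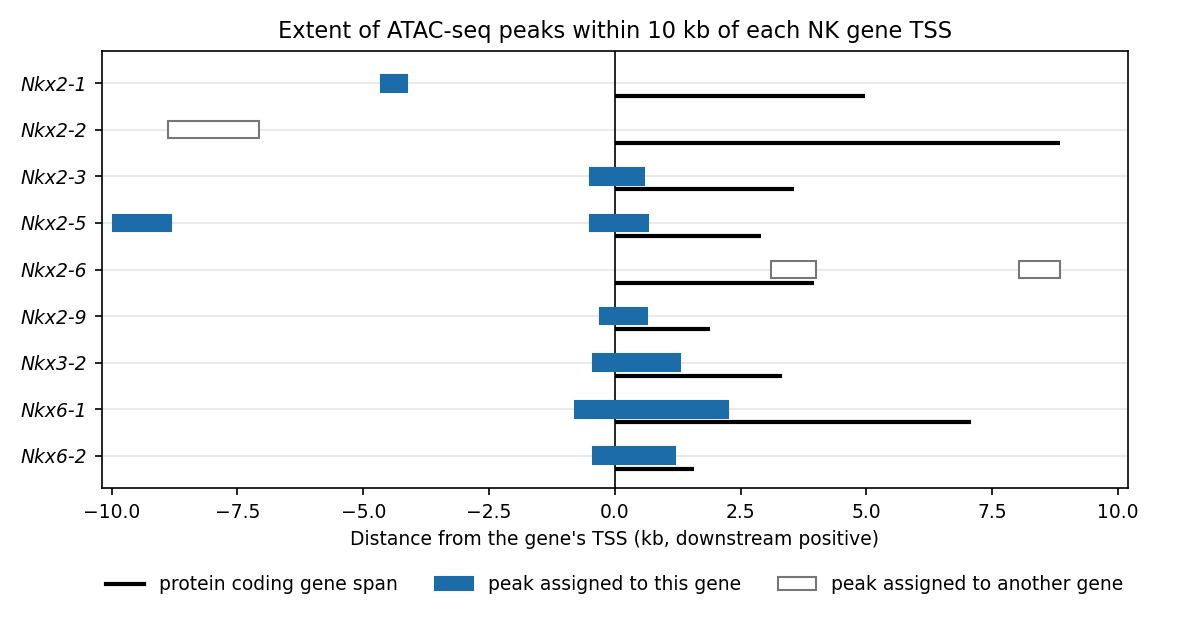
Extent of every peak within 10 kb of the TSS of each NK gene, with distance from the TSS in kb on the horizontal axis (positive downstream); filled bars are peaks assigned to the gene, open bars peaks assigned to another gene, and black lines the span of the protein coding gene. Filled bars cover the TSS in 6 rows, the longest being the 3031 bp of Nkx6-1, and the open bar of Nkx2-6 lies over the end of the gene.

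Of the 14 NK peaks, 6 lay within 1 kb of the assigned TSS, beside 44.9% of all peaks, and 6 lay more than 10 kb away, beside 41.4%. Each of the 6 covered the TSS, and its midpoint was downstream in 6 of 6, beside 64.3% of all peaks within 1 kb. All 6 reached into coding sequence, by 148 bp in Nkx2-9 to 673 bp in Nkx6-1. The 8 peaks beyond 1 kb were upstream in 5 cases and downstream in 3, beside 44.2% upstream among all such peaks. The promoter peaks of the 3 NK2 genes were 950 to 1135 bp wide, and those of Nkx3-2, Nkx6-1 and Nkx6-2 were 1625 to 3031 bp wide.

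Promoter peaks of the NK genes had a median width of 1380 bp, against 1326 bp for all peaks within 1 kb of a TSS. The peaks beyond 1 kb ranged from 517 to 1155 bp with a median of 763.5 bp, against a median of 911 bp and quartiles of 735 and 1146 bp for all such peaks. GC content was 57.7 to 66.2% in the promoter peaks, with a median of 61.7% beside 58.6% for the class. It was 47.2 to 56.5% beyond 1 kb, with a median of 53.9% beside 51.4%. The CpG ratio of the 6 promoter peaks had a median of 0.655, close to 0.685 for all peaks within 1 kb. Beyond 1 kb the median was 0.330, beside 0.242 for all such peaks. The ratio ran from 0.194 to 0.384 in 5 of the 8. In the other 3 it was 0.507, 0.530 and 0.632, those of Nkx6-1 (downstream), Nkx2-1 and Nkx2-5 (-9390 bp). With so few peaks none of these medians was set apart from its class by a test.

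**Figure D3:**
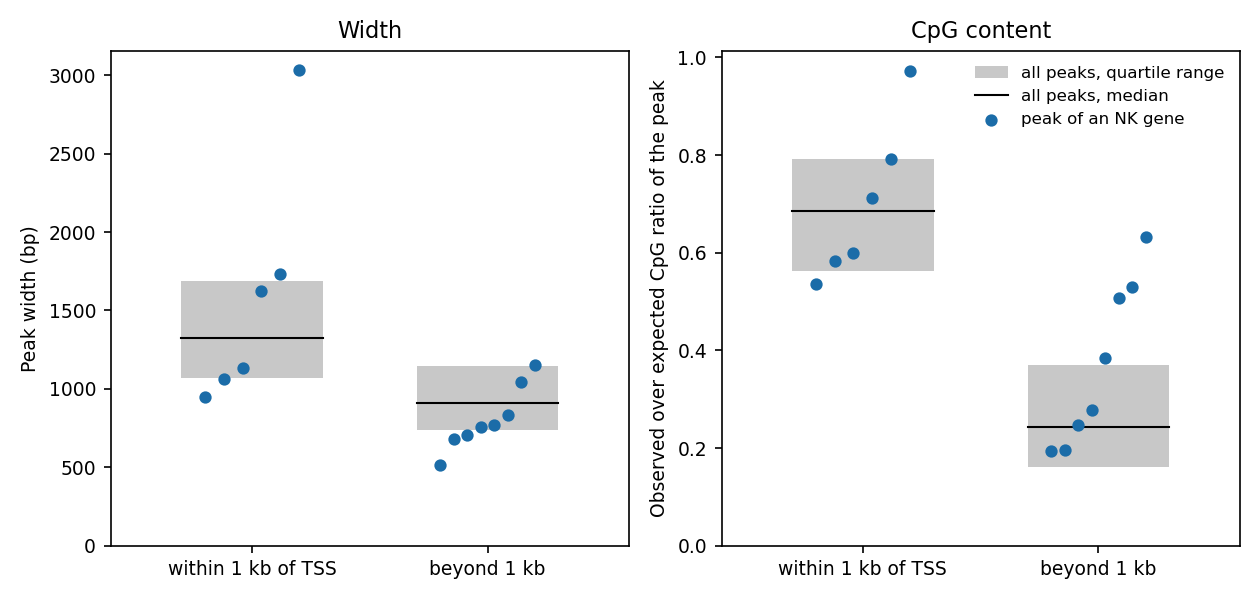
Width in bp (left) and observed over expected CpG ratio (right) of the 14 NK peaks, split at 1 kb from the assigned TSS; points are single NK peaks, spread sideways for visibility, grey boxes the quartile range and black lines the median of all peaks of the class. The 3031 bp peak of Nkx6-1 stands above the other promoter peaks, and 3 of 8 peaks beyond 1 kb have CpG ratios over 0.5.

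Promoters, taken as 500 bp on either side of the TSS, overlapped a peak in 6 of the 9 NK genes, beside 53.7% of 22219 annotated protein coding promoters. Those without were Nkx2-1, Nkx2-2 and Nkx2-6. CpG content divides promoters as a whole, with a median ratio of 0.738 in those with a peak and 0.218 in those without. Nkx2-6 had the lowest ratio of the 9, at 0.375. Nkx2-1 and Nkx2-2 did not have CpG-poor promoters, with ratios of 0.668 and 0.670, above those of Nkx2-3 (0.571), Nkx2-5 (0.593) and Nkx2-9 (0.528), which had a peak. Among the 6 NK promoters with a ratio of 0.5 to 0.7 and a GC content of at least 50%, 4 overlapped a peak, beside 84.7% of 3821 such promoters. With a ratio of at least 0.6 and the same GC content, 3 of 5 NK promoters overlapped a peak, beside 89.4% of 9930. Among the other promoters it was 3 of 4 NK promoters beside 24.9% of 12289, a class with a median ratio of 0.252. The 3 were Nkx2-3, Nkx2-5 and Nkx2-9, just below the cut of 0.6, so they are unlike most of that class. They also belong to the class of 0.5 to 0.7, where the share was 84.7%. Nkx6-1 and Nkx6-2 had the highest ratios of the 9, at 0.778 and 0.978, and Nkx3-2 stood at 0.682. Of the 4 further NK genes, Nkx1-1 and Nkx2-4 lacked a promoter peak at ratios of 0.917 and 0.935, and so did Nkx6-3 at 0.273, while Nkx1-2 had one at 0.641.

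The contrast in CpG content is shown by the 150 bases upstream of 3 TSSs, read in the direction of the gene with each CG pair in capitals. They are Nkx2-5 (chr17:26978511-26978660, minus strand) and Nkx6-2 (chr7:146768697-146768846, minus strand), which had a promoter peak, and Nkx2-6 (chr14:69789483-69789632, plus strand), which had none.

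Nkx2-5 upstream of TSS: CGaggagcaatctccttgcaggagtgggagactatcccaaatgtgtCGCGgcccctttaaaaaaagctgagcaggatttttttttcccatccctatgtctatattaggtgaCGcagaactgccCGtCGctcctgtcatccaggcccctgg
Nkx6-2 upstream of TSS: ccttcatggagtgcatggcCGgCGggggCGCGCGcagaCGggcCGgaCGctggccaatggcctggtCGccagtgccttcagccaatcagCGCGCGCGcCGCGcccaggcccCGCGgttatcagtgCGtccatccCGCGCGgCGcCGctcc
Nkx2-6 upstream of TSS: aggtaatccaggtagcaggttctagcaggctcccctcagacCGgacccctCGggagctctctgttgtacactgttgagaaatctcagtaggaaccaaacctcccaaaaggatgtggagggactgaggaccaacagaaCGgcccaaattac

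There were 6 CG pairs upstream of Nkx2-5, 23 upstream of Nkx6-2 and 3 upstream of Nkx2-6. Nkx2-5 was nearer to Nkx2-6 than to Nkx6-2 in this count, with a GC content of 52.0% in the window against 75.3% for Nkx6-2 and 53.3% for Nkx2-6.

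**Figure D4:**
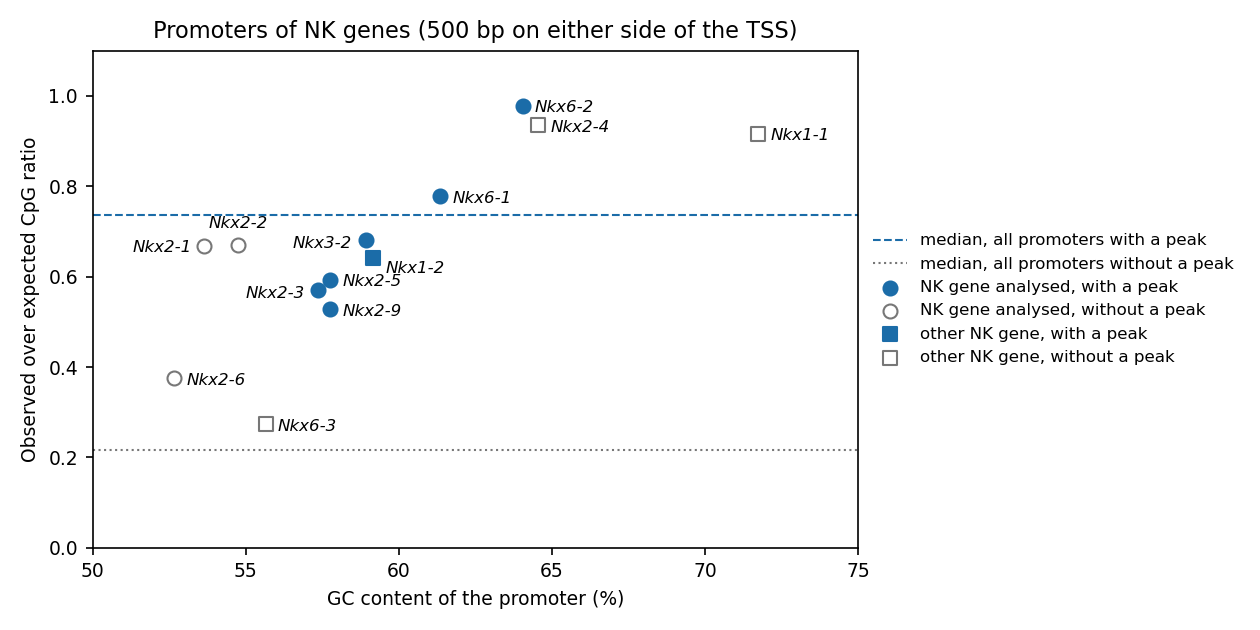
GC content in percent (horizontal) and observed over expected CpG ratio (vertical) of the promoters of the 9 NK genes (circles) and 4 other NK genes (squares), filled where a peak overlapped the promoter; lines mark the median ratio of all promoters with a peak (0.738) and without (0.218). Nkx2-1 and Nkx2-2 are open circles at ratios above those of the filled Nkx2-3, Nkx2-5 and Nkx2-9.

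The NK2 core AAGTG stood in the central 300 bp of 5 of 14 NK peaks on either strand, beside 40.0% of all peaks. They were the promoter peaks of Nkx2-3 and Nkx2-9, both outer peaks of Nkx3-2 and the upstream peak of Nkx6-1. The central windows of the 3 peaks of Nkx2-5 held none. Over the whole peak, AAGTG stood 2 times in the Nkx2-5 peak at -9390 bp and 1 time in its promoter peak. Beyond 1 kb the core was held by 3 of 8 NK peaks, beside 44.9% of all such peaks. AGATAA was held by 2 of these 8, beside 14.6%, and TAATG by 4 of 8, beside 24.5%. The 4 with TAATG were the peaks of Nkx2-5 at -9390 bp, Nkx3-2 at 19621 bp, Nkx6-1 at -23990 bp and Nkx6-2 at 53864 bp. The homeodomain letters TAATTA stood in 0 of the 14 central windows, beside 3.00% of all peaks. None of these counts is called particular to the NK genes.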

How the data were processed

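ATAC-seq was performed on 2 samples of day 5 CPCs. Per the study's methods, the authors aligned reads to mm9 with bowtie2, filtered them with samtools, removed duplicates with Picard 1.136, called peaks per replicate with MACS14, dropped blacklisted regions and kept peaks shared by both replicates (bedtools 2.15, at least 1 bp). HOMER assigned the nearest TSS, a step described for ChIP-Seq. No correction for the Tn5 cut position is described beyond the fixed shift at peak calling. The deposited values are peak start, end and signed distance in bp; an interval carries 1 replicate's coordinates, so width depends on that replicate's depth, which is unknown here.

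Of 26429 lines, 26232 intervals were distinct. Peaks over all protein coding genes were counted by accession, then symbol, against RefSeq (GRCm38.p6, names only). Those of the NK genes, the other gene lists and the markers were counted by symbol alone. Sequence and TSSs came from NCBIM37 (mm9) and GENCODE vM1; the deposited distance equalled the GENCODE distance within 1 bp for 8 of 14 NK peaks. Positions are 1-based. Computation used Python 3.11.15, pandas 2.3.3, NumPy 2.4.6 and pysam 0.24.0. The motif search and the search for the nearest TSS were tested on simulated data, and the counts per gene were not. Named genes were the 9 genes, the other NK genes, neighbouring genes and genes with a peak within 100 kb; 1 gene that this rule names is not reported here. The genes and lists were chosen with earlier results of these data known. Alternatives covered peak width, duplicate lines, gene assignment, promoter size and motif.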

Additional observations from a re-analysis of the deposited data

How the results depend on the processing

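Over 30 alternative values of 8 measures, 6 counts moved by more than 1.5 times. The other 24 values moved less or, for a median, stayed within its 95% interval. That interval is drawn from the 14 NK peaks of the shared list and holds no replicate error. With only peaks wider than the median of all peaks (1081 bp), 5 NK peaks in 4 genes were left. Of these, 0 lay more than 10 kb from a TSS and 0 had AAGTG in the central window. Their median width was 1625 bp in place of 997 bp, more than 1.5 times, at the upper end of its interval (708 to 1625 bp). A filter on width raises that median in any set of peaks. In the whole list, too, peaks beyond 1 kb were narrower (median 911 bp) than those within 1 kb (1326 bp). No share over all peaks is given for this filter. Searching the whole peak found AAGTG in 12 of 14 NK peaks (85.7%, beside 87.4% of all peaks), and the longer core CAAGTG was in the central window of 2, beside 12.2% of all peaks. Assignment to the nearest GENCODE protein coding TSS gave 20 peaks in place of 14, in 9 of 9 genes, adding 2 each for Nkx2-1, Nkx2-2 and Nkx2-6, with 6 within 1 kb, 9 in place of 6 beyond 10 kb, and a median width of 871 bp. Counting any annotated TSS gave 7 promoters with a peak, adding Nkx2-2. No share over all genes is given for either setting. The 62.5% and 53.7% of protein coding genes and promoters given above belong to the deposited assignment and to the coding TSS. The comparison of promoters with a CpG ratio of 0.5 to 0.7 was chosen after seeing the data.

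No paired analysis was possible because the list has no value for either replicate, and for the same reason leaving out a replicate could not be run. Depth, peak height and counting error are unknown, and peaks called in 1 replicate alone are not in the list.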
